A study of Mus musculus with 12 samples.

Results

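Transcripts of 10 small leucine-rich proteoglycans were examined in inguinal white adipose tissue (iWAT) of mice that overexpressed Notum or GFP in the liver. The members were chosen by gene name: Dcn, Bgn, Aspn, Lum, Fmod, Prelp, Omd, Ogn, Chad and Podn. Each name belonged to 1 of the 54134 genes of the count table, and 9 of the 10 were among the 15585 genes with enough reads to be tested. Male C57BL/6J mice received, at 8 weeks of age and by tail vein, an adeno-associated virus (AAV) carrying GFP (AAV-GFP, the GFP mice, n = 6) or mouse Notum (AAV-Notum, the Notum mice, n = 6) under a promoter active in liver. All 12 mice ate chow for 4 weeks, were fasted for 4 h and gave tissue at 12 weeks of age. NOTUM is a secreted carboxylesterase that removes a lipid from WNT proteins and so inhibits them. The comparison asks how the fat depot differed when the liver made the enzyme.

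Small leucine-rich proteoglycans are secreted proteins with a curved core of leucine-rich repeats, and many carry chondroitin, dermatan or keratan sulfate chains. They coat collagen fibrils, limit fibril width and hold growth factors such as TGF-β in the matrix. In fat they are made mainly by fibroblasts and progenitor cells of the stroma, and they belong to the matrix that surrounds each adipocyte.

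Each mouse was a sample of its own, with 14711113 to 21618860 reads in genes, so p-values measure the spread between mice. Levels are CPM (reads of a gene per total reads, on a common scale), scaled by edgeR's TMM library sizes. Fold changes, given as log2 of AAV-Notum over AAV-GFP, and adjusted p-values came from edgeR's quasi-likelihood test over the 15585 genes. Notum itself had 1 to 17 reads in 10 mice and 560 and 433 reads in mice AAV-Notum-2032 and AAV-Notum-2041, and since the vector acts in liver, its level in fat does not check the labels. RNA integrity numbers ran from 5.7 to 7.6 in GFP mice and from 6.9 to 7.4 in Notum mice. RNA of mouse AAV-GFP-2012 was isolated 22 days after collection, against 2 days for the others. The adipocyte markers were abundant in every mouse. Of 12 markers of tendon, cartilage and bone, 9 had at most 6 reads in any mouse (Scx, Tnmd, Mkx, Acan, Col2a1, Col9a1, Matn3, Bglap and Ibsp), while Sp7 reached 13, Sox9 28 and Col11a1 42 reads.

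No proteoglycan passed an adjusted p of 0.05 with edgeR, 1 (Prelp) did with DESeq2, and 8 of the 9 tested had lower values in Notum mice. Over all genes 0.0513% passed that threshold with edgeR and 3.18% with DESeq2. The median log2 fold change of the 9 was -0.39, against 0.0077 for all genes tested. At an unadjusted p under 0.05, 4 of 9 were lower (Dcn, Prelp, Ogn and Podn), and the same threshold took 9.54% of all genes as lower. None of the 9 was higher at that threshold, against 4.64% of all genes. No proteoglycan had all Notum mice below all GFP mice, a pattern that 0.693% of all genes had. Since whole tissue was sequenced, fewer cells of a type and less RNA per cell cannot be told apart.

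**Figure D1:**
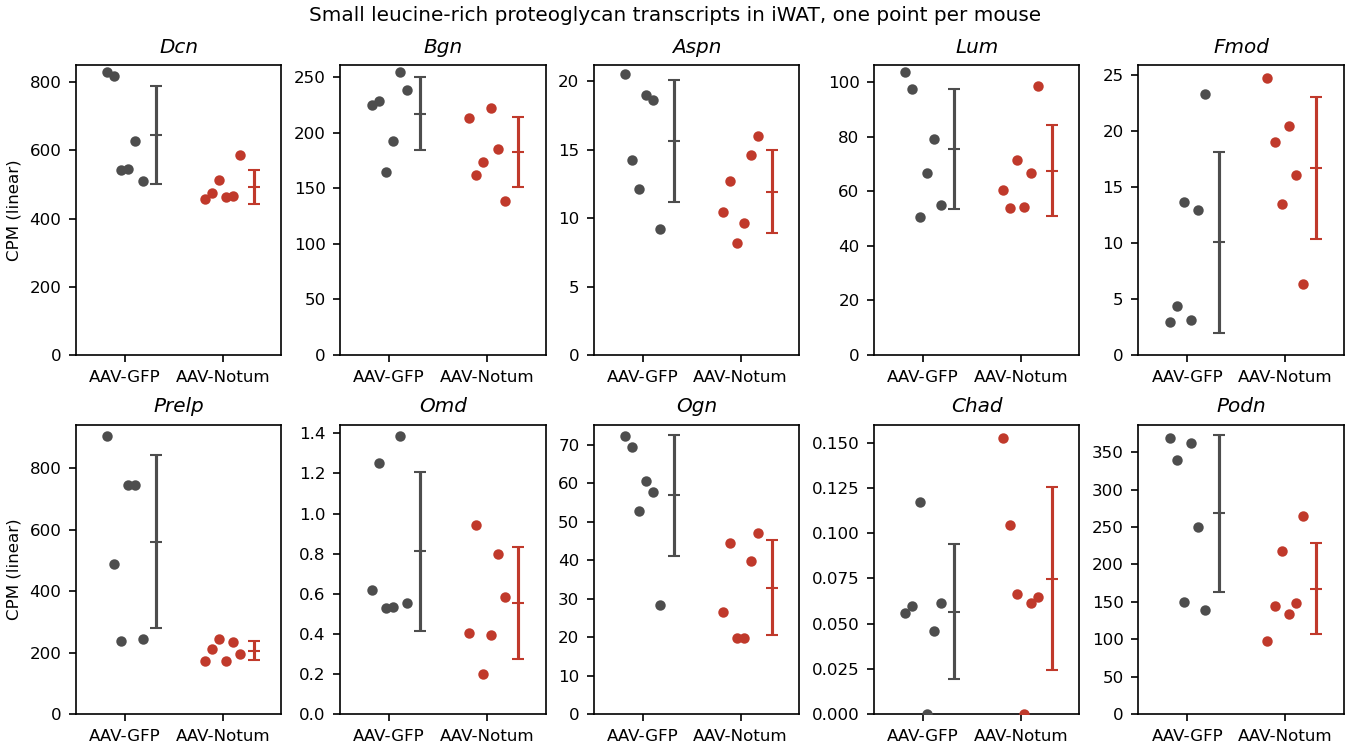
Level of each proteoglycan transcript (CPM, linear axes from 0) in AAV-GFP (grey) and AAV-Notum (red) mice, one point per mouse, with the mean ± SD of 6 mice beside them. The Notum mice lie in a narrow band for Prelp (172 to 246 CPM), below 4 of the 6 GFP mice.

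Prelp had the lowest fold change of the 9. PRELP is a proteoglycan with a basic end that binds heparan sulfate and is found where basement membranes meet connective tissue. In GFP mice its lowest, median and highest levels were 239, 618 and 906 CPM. In Notum mice they were 172, 204 and 246 CPM. Mice AAV-GFP-2013 (239 CPM) and AAV-GFP-2022 (244 CPM) lay within the Notum range, and the other 4 GFP mice, from 490 to 906 CPM, lay above it. The mean was 562 ± 282 CPM (SD, n = 6) in GFP mice and 206 ± 30.9 CPM (SD, n = 6) in Notum mice, 0.366 times the GFP level. The log2 fold change was -1.45 (SE 0.32, edgeR adjusted p = 0.117), and Prelp was number 88 of all genes by p. A two-sided exact permutation test gave p = 0.00649 for Prelp, where 6 mice against 6 allow no p under 0.00216. All 6 Notum mice were below the GFP mean. The adjusted p of Prelp from edgeR was 0.0314 without mouse AAV-GFP-2022 (log2 fold change -1.60) and up to 0.298 with another mouse left out, and with DESeq2 it was 0.00121 over all mice. Over all alternatives but the mice left out singly, it ran from 0.00121 to 0.518. Without mouse AAV-GFP-2012, whose RNA was isolated later, the log2 fold change of Prelp was -1.49. Prelp shares 9.68% of its exon bases with the antisense gene Gm15851, and reads of the overlap cannot be assigned where counting ignores strand.

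Dcn encodes decorin, the chief dermatan sulfate proteoglycan of loose connective tissue and a protein that binds TGF-β and the EGF receptor. Its lowest, median and highest levels were 511, 586 and 831 CPM in GFP mice and 457, 470 and 587 CPM in Notum mice. The groups overlapped, with 4 of 6 Notum mice below every GFP mouse and mouse AAV-Notum-2042 highest of its group. The means were 646 ± 143 CPM and 494 ± 49.8 CPM (SD, n = 6 each), a log2 fold change of -0.39 (SE 0.14, edgeR adjusted p = 0.258, exact permutation p = 0.0216). Bgn (chromosome X, 73483602 to 73495933) encodes biglycan, the closest relative of decorin and a ligand of the Toll-like receptors TLR2 and TLR4. It ran from 165 to 255 CPM (median 227) in GFP mice and from 139 to 222 CPM (median 179) in Notum mice. Ranges of Bgn overlapped over most of their length, and the log2 fold change was -0.25 (SE 0.13, edgeR adjusted p = 0.400).

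Podn (chromosome 4, 108014791 to 108096445) encodes podocan, a collagen-binding member of a class of its own with Podnl1. Podn ran from 139 to 369 CPM (median 295) in GFP mice and from 98.0 to 265 CPM (median 147) in Notum mice. The GFP mice split into AAV-GFP-2013 and AAV-GFP-2022, at 150 and 139 CPM, and the others, from 251 to 369 CPM. The log2 fold change of Podn was -0.68 (SE 0.30, edgeR adjusted p = 0.339, exact permutation p = 0.0996), and every Notum mouse was below the GFP mean. Lum encodes lumican, a keratan sulfate proteoglycan that sets collagen fibril spacing. It ran from 50.5 to 104 CPM (median 72.9) in GFP mice and from 53.7 to 98.6 CPM (median 63.6) in Notum mice. The Notum range of Lum lay within the GFP range, with a log2 fold change of -0.16 (SE 0.20, edgeR adjusted p = 0.673). Lum took the opposite sign, 0.081, with the lymphoid marker score in the fit.

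Fmod was the only tested proteoglycan with a fold change above 0. Fibromodulin, its product, binds collagen fibrils of tendon and skin and carries keratan sulfate. Fmod ran from 2.97 to 23.3 CPM (median 8.66) in GFP mice and from 6.34 to 24.7 CPM (median 17.6) in Notum mice. Mice AAV-GFP-2011, AAV-GFP-2012 and AAV-GFP-2014, at 2.97 to 4.41 CPM, lay below every Notum mouse, and the other 3 GFP mice, up to 23.3 CPM in mouse AAV-GFP-2022, lay within the Notum range. The log2 fold change was 0.73 (SE 0.51, edgeR adjusted p = 0.481, exact permutation p = 0.0952). It was 1.17 without mouse AAV-GFP-2022 (adjusted p = 0.181 from edgeR) and 0.54 without mouse AAV-GFP-2011, the extremes with a mouse left out.

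Fmod and Prelp are neighbouring protein-coding genes on chromosome 1 of GRCm38. Prelp is on the minus strand, from 133910304 to 133921414, and Fmod on the plus strand, from 134037254 to 134048277. Their log2 ratio, Prelp over Fmod, was 6.04 ± 1.98 (SD, n = 6) in GFP mice and 3.72 ± 0.78 (SD, n = 6) in Notum mice. The difference was -2.32 (two-sided exact permutation p = 0.0303, adjusted p = 0.111 over 11 ratios). With group means removed, their log2 levels had a Pearson r of -0.67 over 12 mice (permutation p = 0.0903, adjusted p = 0.094 over 5 pairs of neighbours) and a Spearman rho of -0.64 (permutation p = 0.0841). Their promoters are shown because the genes are adjacent and their fold changes have opposite signs. The windows run from 250 bases before to 50 after the RefSeq start (GRCm38.p6), 5′ to 3′ on the gene's strand, Prelp at chr1:133921352-133921651 (minus) and Fmod at chr1:134037004-134037303 (plus). Both strands were searched for the TATA box TATAAA, for the core of TCF/LEF sites CTTTGA, for the AP-1 site TGANTCA, for the SMAD half-site CAGAC and for the GC box GGGCGG. Capitals mark the matches, and only CAGAC was found here.
Prelp: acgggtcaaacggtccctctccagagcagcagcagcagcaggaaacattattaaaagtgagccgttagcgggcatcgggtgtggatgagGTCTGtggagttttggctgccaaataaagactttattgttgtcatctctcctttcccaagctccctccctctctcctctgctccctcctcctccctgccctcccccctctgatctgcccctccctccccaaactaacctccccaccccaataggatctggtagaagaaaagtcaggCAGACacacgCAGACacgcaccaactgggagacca
Fmod: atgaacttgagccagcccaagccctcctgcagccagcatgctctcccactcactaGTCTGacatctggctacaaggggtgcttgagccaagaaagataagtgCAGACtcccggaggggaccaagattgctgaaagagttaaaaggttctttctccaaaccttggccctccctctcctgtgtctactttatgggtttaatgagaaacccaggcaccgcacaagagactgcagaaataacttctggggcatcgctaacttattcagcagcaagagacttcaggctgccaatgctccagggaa

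Prelp held 3 matches to CAGAC and Fmod 2, letters that 49.6% of 32817 mouse promoter windows hold. Neither held the TCF/LEF core, which 16% of windows hold. A match is a run of letters and not a binding site.

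Ogn, Aspn and Omd lie in a row on the plus strand of chromosome 13, Aspn from 49544443 to 49567565, Omd from 49582462 to 49592822 and Ogn from 49608046 to 49624501. Ogn encodes osteoglycin (mimecan), a small proteoglycan of vessels, cornea and connective tissue. Its lowest, median and highest levels were 28.4, 59.1 and 72.2 CPM in GFP mice and 19.7, 33.1 and 46.9 CPM in Notum mice. Mouse AAV-GFP-2022, at 28.4 CPM, was the only GFP mouse within the Notum range. Mean Ogn was 56.9 ± 15.7 CPM and 32.8 ± 12.4 CPM (SD, n = 6 each), a log2 fold change of -0.79 (SE 0.27, edgeR adjusted p = 0.236, exact permutation p = 0.0325). With a mouse left out it ran from -0.93 to -0.68, with adjusted p from 0.0787 to 0.456, and with the lymphoid score in the fit it was -0.54 (adjusted p = 0.601 from edgeR).

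Aspn encodes asporin, which resembles decorin but carries a run of aspartates in place of the sugar chain. Aspn ran from 9.24 to 20.6 CPM (median 16.5) in GFP mice and from 8.22 to 15.99 CPM (median 11.6) in Notum mice. The ranges overlapped, and the log2 fold change was -0.39 (SE 0.22, edgeR adjusted p = 0.413). It was -0.11 with the lymphoid score in the fit and -0.19 without mice AAV-GFP-2014 and AAV-GFP-2011. Omd encodes osteomodulin, a keratan sulfate proteoglycan best known from bone. It was at the edge of detection, with 3 to 30 reads per mouse, 0.811 ± 0.395 CPM in GFP mice and 0.554 ± 0.278 CPM in Notum mice (SD, n = 6 each), and a log2 fold change of -0.55 (SE 0.39, edgeR adjusted p = 0.485). With a mouse left out it ran from -0.77 to -0.32, the latter without mouse AAV-GFP-2021.

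Ogn and Aspn levels ran together from mouse to mouse. With group means removed, Pearson r was 0.87 over 12 mice (permutation p = 0.00105, adjusted p = 0.00262 over 5 pairs) and Spearman rho was 0.85 (permutation p = 7.2e-04), and r was 0.79 without mouse AAV-GFP-2022 and mouse AAV-Notum-2034. Among all genes ranked by r over the 12 mice, Aspn was only number 38 for Ogn, and Ogn number 83 for Aspn. Ogn and Omd gave an r of 0.65 (permutation p = 0.0361, adjusted p = 0.0602), and Omd and Aspn gave 0.53 (permutation p = 0.094). The ratio of Aspn to Ogn was above the GFP mean in 6 of 6 Notum mice. Its log2 value was -1.85 ± 0.28 in GFP mice and -1.40 ± 0.26 in Notum mice (SD, n = 6 each), a difference of 0.45 (two-sided exact permutation p = 0.0152, adjusted p = 0.107 over 11 ratios). The promoters of these neighbours are given for comparison, all on the plus strand, Aspn at chr13:49544193-49544492, Omd at chr13:49582212-49582511 and Ogn at chr13:49607765-49608064, with capitals as above.
Aspn: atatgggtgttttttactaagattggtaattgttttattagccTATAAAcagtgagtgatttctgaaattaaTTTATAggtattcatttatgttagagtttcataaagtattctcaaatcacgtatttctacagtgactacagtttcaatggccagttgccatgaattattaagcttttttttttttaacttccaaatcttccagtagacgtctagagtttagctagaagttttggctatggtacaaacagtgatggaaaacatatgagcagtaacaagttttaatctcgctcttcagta
Omd: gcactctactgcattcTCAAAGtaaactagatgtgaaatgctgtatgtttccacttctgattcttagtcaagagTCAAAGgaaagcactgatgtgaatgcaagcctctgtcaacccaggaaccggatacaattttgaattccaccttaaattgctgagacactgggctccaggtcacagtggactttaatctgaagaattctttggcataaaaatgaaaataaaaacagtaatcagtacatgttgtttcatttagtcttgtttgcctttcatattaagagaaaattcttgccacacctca
Ogn: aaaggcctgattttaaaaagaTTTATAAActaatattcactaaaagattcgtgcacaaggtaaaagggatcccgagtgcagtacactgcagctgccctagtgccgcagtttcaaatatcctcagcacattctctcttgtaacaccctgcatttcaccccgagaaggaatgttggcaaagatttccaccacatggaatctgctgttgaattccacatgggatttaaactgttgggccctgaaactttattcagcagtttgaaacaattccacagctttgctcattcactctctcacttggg

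Aspn and Ogn each held 2 matches to TATAAA, found in 13.6% of all windows and here far upstream of the start. The 2 in Ogn, at -229 and -227, overlap in a single stretch (TTTATAAA) read on both strands. Omd held 2 matches to CTTTGA. None of the 8 members with a window in the RefSeq table (9 windows) held TGANTCA, which 7.81% of all windows hold.

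Dcn and Lum are neighbours on the plus strand of chromosome 10, Dcn from 97479609 to 97518143 and Lum from 97565128 to 97572703. Their levels also ran together, with a Pearson r of 0.91 over 12 mice after group means were removed (permutation p = 4.4e-04, adjusted p = 0.0022 over 5 pairs). Spearman rho was 0.87 (permutation p = 0.00153), and r was 0.87 without mice AAV-GFP-2011 and AAV-GFP-2012. Among all genes, however, Lum was only number 17 by likeness to Dcn, and the first was Col1a1, a chain of collagen I, with an r of 0.97 over 12 mice. Over the 36 pairs of tested proteoglycans, the median r was 0.32, with 24 above 0. Of the 8 pairs with Fmod, 1 was above 0, and the lowest r was that of Fmod with Podn, -0.92. The gene nearest to Prelp was Myo1c (r 0.98), that nearest to Podn was Tmem43 (r 0.99), and that nearest to Fmod was Csf2rb2 (r 0.99). For the others the nearest were Tlr3 (Ogn, r 0.95), Gm14703 (Aspn, r 0.96), Dtwd1 (Lum, r 0.96), Slc25a24 (Omd, r 0.87) and Adap2 (Bgn, r 0.86). These values describe likeness over 12 mice and come with no test.

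Chad (chromosome 11, 94565047 to 94569127) encodes chondroadherin, a cartilage protein without sugar chains. It had 0 to 3 reads per mouse and 14 in all, too few to test. Reads recovered from the second deposited table, which differ from the raw counts gene by gene, number 625 for Chad, 32 to 84 per mouse. There Chad passed the filter, with a log2 fold change of 0.15 (adjusted p = 0.790 from edgeR). Chad lies within Acsf2, on the opposite strand and with no shared exon bases, and the source of the extra reads was not tested. For the other 9 the second table holds 90.3% (Prelp) to 112% (Omd) of the reads.

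**Figure D2:**
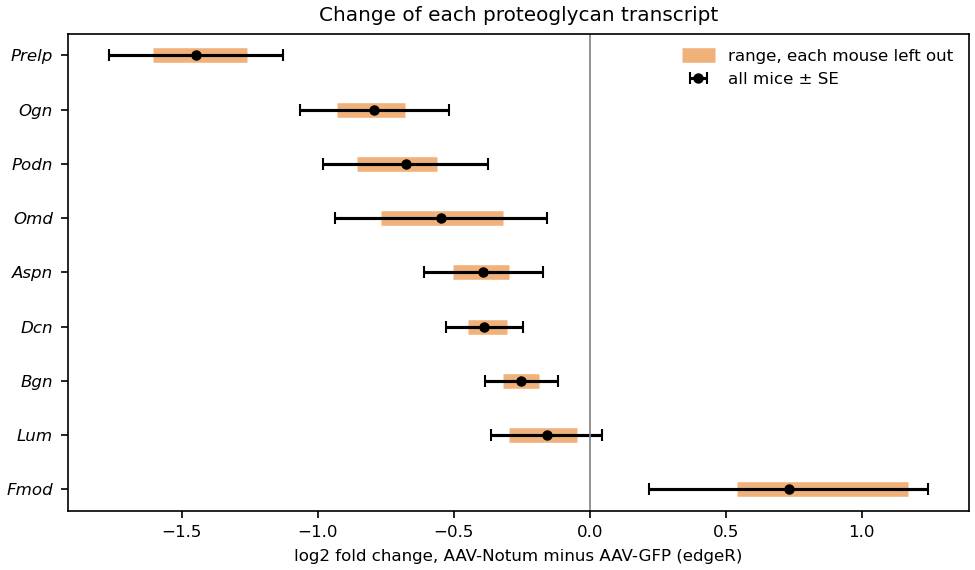
Log2 fold change (AAV-Notum minus AAV-GFP, edgeR) of the 9 tested proteoglycans, as points with the standard error, over orange bars for the range when each of the 12 mice was left out in turn. All 8 fold changes below 0 stayed below 0, from -1.61 to -1.26 for Prelp and from -0.30 to -0.046 for Lum, and Fmod stayed above 0.

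Levels were compared between members as CPM per kb of the principal transcript of each gene. Dcn was the highest in both groups, at 367 ± 81.6 CPM per kb in GFP mice and 281 ± 28.4 CPM per kb in Notum mice (SD, n = 6 each). Prelp was second in GFP mice (155 ± 78.0 CPM per kb) and came after Bgn in Notum mice (56.9 ± 8.55 CPM per kb). Prelp exceeded the next member, Bgn, in 4 of 6 GFP mice, and Bgn exceeded Podn in 3 of 6, so these neighbours in the order did not differ beyond their spread. Prelp and Podn in Notum mice likewise did not keep one order, with Prelp higher in 4 of 6. Lum, Ogn, Aspn, Fmod, Omd and Chad followed in GFP mice, and in Notum mice Fmod came just before Aspn (higher in 4 of 6). With the length of all exons in place of the principal transcript, Prelp (155 CPM per kb) came before Dcn (111 CPM per kb) in GFP mice, though it was higher in only 3 of the 6. By that length Prelp (56.9 CPM per kb) came before Podn (39.3) and Bgn (29.9) in Notum mice, after Dcn (84.5).

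**Figure D3:**
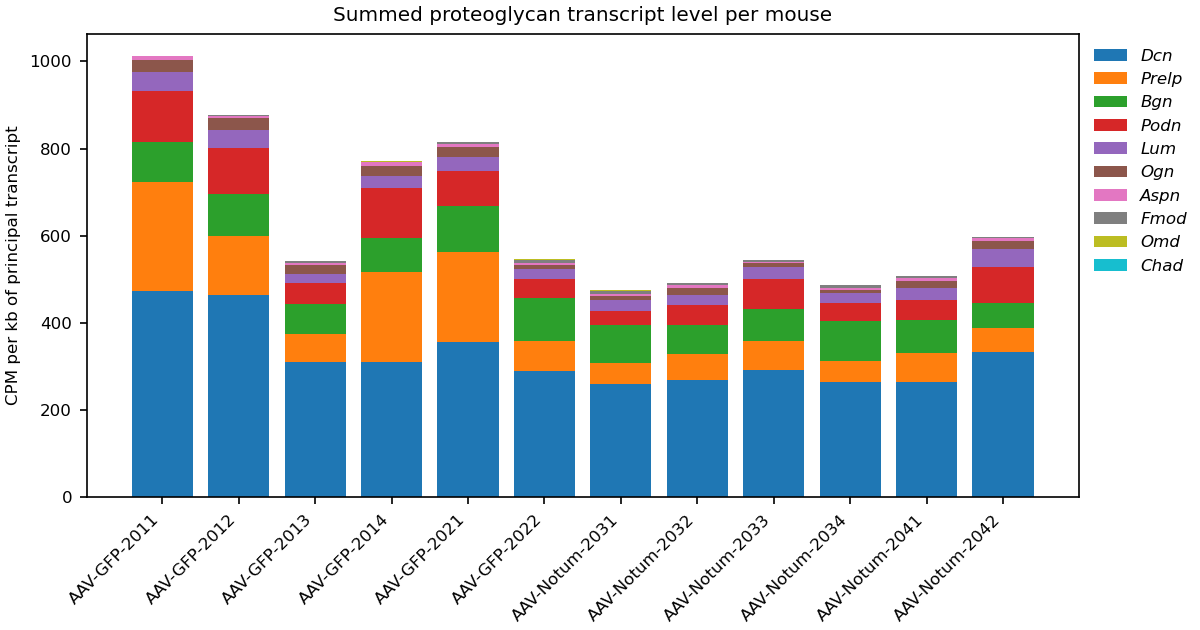
Summed level of the 10 proteoglycan transcripts in each mouse, in CPM per kb of principal transcript, stacked by gene. The sum was 761 ± 187 CPM per kb in GFP mice and 517 ± 45.9 CPM per kb in Notum mice (SD, n = 6 each), and Dcn is the largest block in every mouse.

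Prelp made up 19.5% ± 6.87 of the summed level per kb in GFP mice and 11.0% ± 1.56 in Notum mice (SD, n = 6 each). Dcn made up 49.0% ± 6.48 and 54.3% ± 1.29. With the length of all exons, Prelp made up 34.4% ± 9.32 and 21.8% ± 2.74, and Dcn 27.04% ± 5.93 and 32.4% ± 1.41. The log2 ratio of Prelp to Dcn was -0.36 ± 0.72 in GFP mice and -1.27 ± 0.23 in Notum mice (SD, n = 6 each). All 6 Notum mice were below the GFP mean of this ratio, a difference of -0.91 (two-sided exact permutation p = 0.0195, adjusted p = 0.107 over 11 ratios). The ratio of Fmod to Dcn differed by 1.41 (exact permutation p = 0.0714, adjusted p = 0.157), and that of Lum to Dcn by 0.23 (exact permutation p = 0.0628, adjusted p = 0.157). Ratios of Bgn, Aspn, Podn, Ogn and Omd to Dcn differed by -0.46 (Ogn) to 0.11 (Bgn), with exact permutation p from 0.108 to 0.965.

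Levels of several proteoglycans followed the lymphoid transcripts of the sample. All 15 lymphoid markers had higher values in Notum mice, though none passed an adjusted p of 0.05, and their median log2 fold change was 1.01. Their score, the mean log2 CPM, was lowest in mice AAV-GFP-2011, AAV-GFP-2012 and AAV-GFP-2014 and mouse AAV-Notum-2042, at -0.64 to 5.14, against 6.22 to 7.23 in the other 8 mice. Those 4 mice, set apart after the values were seen, were the 4 lowest for Fmod (2.97 to 6.34 CPM, against 12.9 to 24.7) and the 4 highest for Podn (265 to 369 CPM, against 98.0 to 251). They also had the 4 highest adipocyte scores, 11.4 to 11.6 against 10.5 to 11.2. Of Dcn, Lum, Aspn, Ogn and Prelp, each had 3 of the 4 among its 4 highest mice, and Prelp had 1 among its 4 lowest. Bgn had 2 among its highest and 1 among its lowest, and Omd had 1 among its highest. Since 3 of the 4 mice were GFP mice, these counts do not separate the score from the group. With the lymphoid score as a covariate in edgeR, the log2 fold change was 0.033 for Fmod and -0.16 for Podn. With the adipocyte score instead, added after the data were seen, it was 0.57 for Fmod (adjusted p = 0.213 from edgeR) and -0.39 for Podn (adjusted p = 0.0783 from edgeR). The lymphoid score gave -0.26 for Dcn (adjusted p = 0.653 from edgeR). For Prelp it gave -0.95 (unadjusted p = 0.00555, adjusted p = 0.411 from edgeR). Without mice AAV-GFP-2014 and AAV-GFP-2011, the log2 fold change of Prelp was -1.07 (adjusted p = 0.518 from edgeR). At an unadjusted p under 0.05, 1 of the 9 proteoglycans (Prelp) was lower with the lymphoid score in the fit, and 2 (Dcn and Prelp) without those 2 mice. Of the 13 fibroblast markers, 9 had lower values in Notum mice (median -0.27), as had 7604 of all 15585 genes tested, and 4 of the 13 were lower at an unadjusted edgeR p under 0.05 (9.54% of all genes). Lower values were also found for 8 of 9 endothelial markers (median -0.34, 3 at that threshold) and 6 of 7 nerve markers (median -0.46, none at that threshold). All 7 tested skeletal muscle markers had higher values in Notum mice (median 1.40, none at an unadjusted edgeR p under 0.05), and their score was highest, 7.89, in mouse AAV-Notum-2042, one of the 4 mice low in lymphoid transcripts. All 8 hepatocyte markers had lower values in Notum mice, with a median of -2.79, but only 1 (Alb) at an unadjusted edgeR p under 0.05. Alb ranged from 351 reads in a Notum mouse to 65022 in mouse AAV-GFP-2013. With the RNA integrity number in the fit, Prelp was at -1.25 (adjusted p = 0.309 from edgeR) and Podn at -0.51 (adjusted p = 0.651). The part of these markers, of the lymphoid transcripts and of RNA quality in the results was not tested further.

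**Figure D4:**
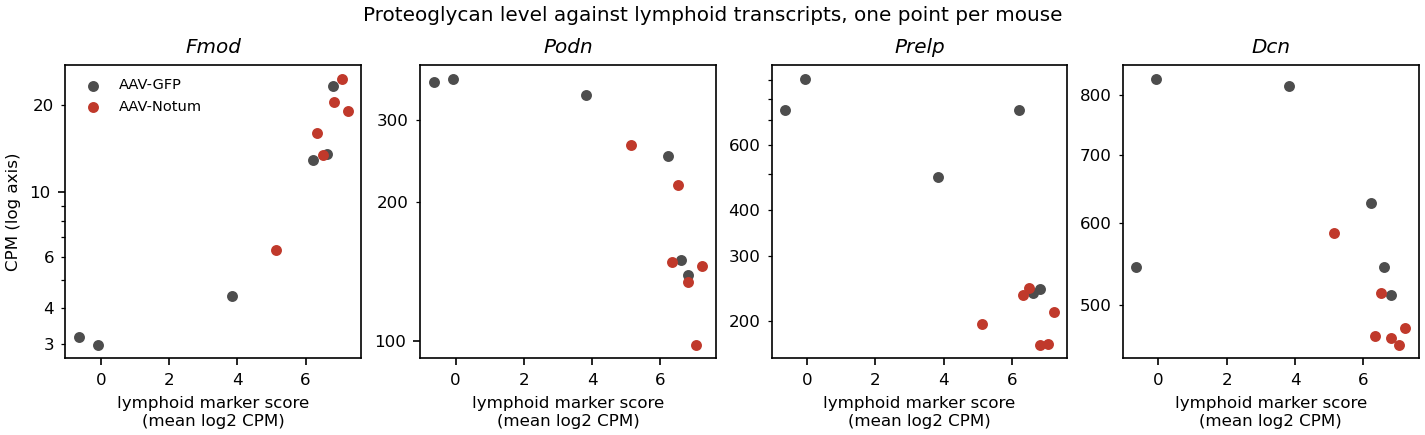
Level of Fmod, Podn, Prelp and Dcn (CPM, log axis) against the lymphoid marker score (mean log2 CPM of 15 genes) in AAV-GFP (grey) and AAV-Notum (red) mice, one point per mouse. Fmod is lowest and Podn highest in the 4 mice with the lowest score, while Prelp is at 196 CPM in mouse AAV-Notum-2042, one of those 4.

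Genes around the proteoglycans were read from lists by role, and with edgeR no gene of the 6 lists passed an adjusted p of 0.05. With DESeq2, 11 of 16 tested matrix partners and 3 of 19 receptors and growth factors did, all lower. So did 1 of 10 proteases and helpers (Bmp1, lower) and 1 of 21 enzymes of chondroitin sulfate (Csgalnact2, lower). Over all genes 3.18% passed with DESeq2, in either direction. With the adipocyte score in the edgeR fit, 4 matrix partners, 3 receptors and growth factors and 1 protease passed as lower and 1 protease as higher. That fit called 270 of all 15585 genes lower and 64 higher. Of the 16 tested collagens and glycoproteins that these proteoglycans bind, 12 were lower at an unadjusted p under 0.05 and none higher (9.54% and 4.64% of all genes), and their median log2 fold change was -0.58. With the lymphoid score in the fit, 9 were lower and the median was -0.41. Every Notum mouse was below every GFP mouse for 3 of them, Col6a1, Col6a3 and Eln, a pattern that 0.693% of all genes had. Eln, which encodes elastin, was at 101 ± 18.4 CPM in GFP mice and 66.8 ± 5.53 CPM in Notum mice (SD, n = 6 each, log2 fold change -0.59, adjusted p = 0.0909 from edgeR and 1.23e-04 from DESeq2). Col6a3, a collagen VI chain abundant in fat, was at 651 ± 182 and 371 ± 44.8 CPM (SD, n = 6 each, log2 fold change -0.81, adjusted p = 0.106 from edgeR and 6.44e-04 from DESeq2).

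Of 19 tested receptors and growth factors that bind members, 6 were lower at an unadjusted p under 0.05 and none higher (9.54% and 4.64% of all genes), with a median of -0.14. Egfr, the EGF receptor that decorin binds, was at 80.6 ± 11.8 CPM and 46.3 ± 9.38 CPM (SD, n = 6 each, log2 fold change -0.80, adjusted p = 0.0847 from edgeR and 3.12e-05 from DESeq2). Tgfb3, a TGF-β ligand, had a log2 fold change of -0.64 (adjusted p = 0.130 from edgeR and 0.00544 from DESeq2). Of 10 tested proteases and their helpers, 4 were lower and 1 higher at that threshold (9.54% and 4.64% of all genes), with a median of -0.32, and 1 was lower and none higher with the lymphoid score in the fit. Bmp1, the protease that removes the propeptide of biglycan, had a log2 fold change of -0.45 (adjusted p = 0.173), and Pcolce, which enhances that protease on procollagen, had -0.54 (adjusted p = 0.214).

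Of 21 tested genes of chondroitin and dermatan sulfate synthesis, 2 were lower and 2 higher at an unadjusted p under 0.05, against 9.54% and 4.64% of all genes. Of the 21, 14 had a log2 fold change below 0 (7604 of the 15585 genes tested did), and the median was -0.12. With the lymphoid score in the fit 1 was lower and none higher. Csgalnact2, which starts chondroitin chains, had -0.30 (adjusted p = 0.185 from edgeR), and B3gat3, which completes the linker of chains to the core, had 0.21 (adjusted p = 0.283). Of 6 tested genes of keratan sulfate synthesis, 1 was lower at an unadjusted p under 0.05 (9.54% of all genes), B4galt4 (log2 fold change -0.37, adjusted p = 0.328 from edgeR). None was once RNA integrity or the lymphoid score entered the fit. In the same list the sulfotransferase Chst4 had 1.34 (adjusted p = 0.429). Of 8 other genes of the family, 5 were tested and none was past an unadjusted p of 0.05. Ecm2 had a log2 fold change of -0.36 (adjusted p = 0.413 from edgeR), and Podnl1, the relative of Podn, had 0.87 (adjusted p = 0.520).

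**Figure D5:**
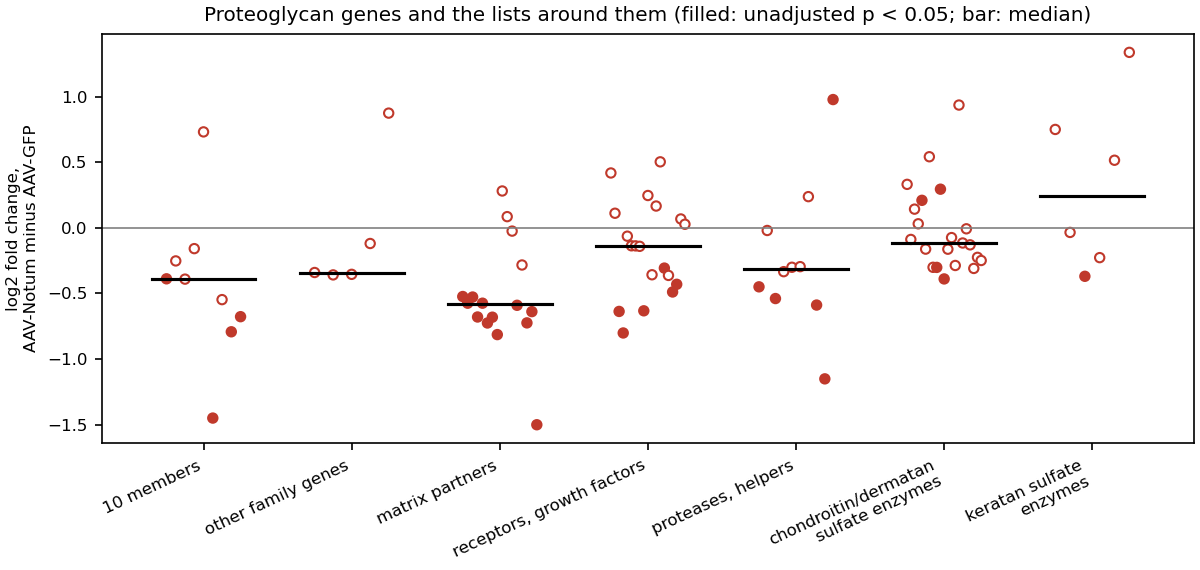
Log2 fold change (AAV-Notum minus AAV-GFP) of each tested gene of the proteoglycans and the 6 lists around them, filled where the unadjusted edgeR p was under 0.05, with a bar at each median. The matrix partners have the lowest median, -0.58, and the median of the 9 proteoglycans is -0.39.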

How the data were processed

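The authors made TruSeq libraries from iWAT RNA, sequenced 50 bp single-end reads on a HiSeq4000 and checked them with FastQC. Per their processing notes, reads were mapped with STAR 2.3.1 to mm10 and tested with DESeq2. The program and annotation behind the counts are not given in the sources used here. One deposited table holds raw counts of reads per gene. The other, deposited by the authors as log2 values (reads divided by a size factor, plus 1), gave whole reads for 100% of values within 0.1 read and served as an alternative.

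The counts were fitted with edgeR 4.0.16 in R 4.3.3 (filterByExpr, minimum count 10 and total 15, TMM, quasi-likelihood test, Benjamini-Hochberg adjustment). Log2 CPM carry a prior count of 2, and ratios of members use counts plus 0.5. Exact permutation tests were two-sided over all 924 assignments of 12 mice. On simulated counts for this comparison (15585 genes), edgeR recovered 43.5% of the 200 genes given a log2 fold change of 1. No library was a copy of another. Gene positions were taken from GENCODE vM21. Alternatives were DESeq2 1.42.0 and voom of limma 3.58.1, other filters, scalings, covariates and mice left out.

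The members and lists were chosen with earlier results of these data known. Counts of the lists under alternatives and shares by the length of all exons were added after the data were seen. Named genes are the members, Notum, the 2 genes of smallest p in each list and the gene nearest to each member by within-group Pearson r. Col6a1 was named after its values were seen, as were markers of other cell types. Figures were drawn with matplotlib 3.10.9.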

Additional observations from a re-analysis of the deposited data

How the results depend on the processing

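No paired analysis was possible because the groups share no replicate numbers. Over all genes, 8 were called lower and 0 higher. Higher calls numbered 94 with DESeq2, 64 with the adipocyte score, 12 without mouse AAV-GFP-2022 and 0 or 1 otherwise. The lower calls numbered 402 with DESeq2 on the genes that edgeR tested, 13 with RLE size factors, 5 when any gene with 1 count was kept, 14 with at least 10 counts in every mouse, 4 with the lymphoid or the fibroblast marker score as a covariate, and 1 without mice AAV-GFP-2014 and AAV-GFP-2011. With the adipocyte marker score, an alternative added after seeing the data, they numbered 270. Leaving out each mouse in turn gave 1 to 146, the highest without mouse AAV-GFP-2022. Proteoglycans called numbered 0, and 1 (Prelp) with DESeq2, with the adipocyte score (adjusted p = 0.0454 from edgeR, log2 fold change -1.08) and, among the fits with a mouse left out (0 to 1), without mouse AAV-GFP-2022. Proteoglycans lower at an unadjusted p under 0.05 numbered 4, with 3 under limma-voom or the RNA integrity number (Podn lost in both), 1 under the lymphoid score, 2 without mice AAV-GFP-2014 and AAV-GFP-2011, and 3 to 5 with a mouse left out. The median log2 fold change of the proteoglycans ran from -0.50 to -0.26 over all alternatives. Signs turned for Lum, at 0.081 with the lymphoid score, and for 2 ratios near 0. The log2 ratio of Aspn to Dcn differed by 0.0084 with the recovered reads, and by -0.097 to 0.103 with a mouse left out, and that of Omd to Dcn by -0.378 to 0.0563. The cause of these differences was not tested. Omd, with 3 to 30 reads per mouse, was not tested under the filter of 10 counts in every mouse, so depth limits it. Chad was tested only with the recovered reads and when any gene with 1 count was kept, and in those fits the median is over 10 proteoglycans.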
